A study of Mus musculus with 18 samples.

Results

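Translation initiation factors are the proteins that bring the small ribosomal subunit, the initiator tRNA and the mRNA together. Their genes were followed in 41BB+ and 41BB- CD8+ T cells before and after activation in culture. The members were the protein-coding autosomal rows of the count table whose GENCODE M21 symbol starts with Eif1, Eif2, Eif3, Eif4, Eif5 or Eif6, without Eif5a and Eif5a2, and no measured value was used to choose them. The rule found 50 of 55487 rows. It left out Eif1ax and Eif2s3x on the X chromosome and Eif2s3y on the Y chromosome. Besides core factors, the symbols take in the 4 kinases of eIF2 alpha, the eIF4E binding proteins and a few genes named for sequence likeness.

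The cells were wild-type C57BL/6J CD8+ T cells of spleen and lymph nodes, sorted by the costimulatory receptor 41BB (CD137, encoded by Tnfrsf9) into 41BB+ cells, called Tpam by the study, and 41BB- cells, called conventional. RNA came from unactivated cells (0 h) and from cells cultured for 24 h or 72 h on Dynabeads carrying antibodies to CD3 and CD28, in medium with serum. Each of the 6 groups had 3 libraries, described as biological triplicates, and the labels give neither the age of the mice nor whether a library came from 1 animal or a pool. The names 41BB+ and 41BB- refer to the sort at 0 h. Total counts ran from 3085241 to 4239795 per library.

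In cap-dependent initiation, eIF4F, made of the cap-binding protein eIF4E, the scaffold eIF4G and the helicase eIF4A, recruits an mRNA to a small ribosomal subunit that carries eIF3, eIF1, eIF1A, eIF5 and the complex of eIF2, GTP and initiator tRNA. Each round leaves eIF2 bound to GDP, and eIF2B restores the GTP form. Phosphorylation of eIF2 alpha by one of its kinases blocks eIF2B, and the 4E binding proteins keep eIF4E from eIF4G until mTORC1 phosphorylates them. T cells that leave the resting state enlarge and raise protein synthesis, so these genes are a classic part of the growth response.

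Labels and cell identity were checked first. Tnfrsf9 stood between 373 and 421 CPM (the count divided by the library total, times 1e+06) in the 41BB+ libraries at 0 h and between 4.96 and 8.45 CPM in the 41BB- libraries. After 24 h it was at 129 to 149 and 172 to 194 CPM, so by then the 41BB- cells no longer had the lower level. At 72 h it was at 11.6 to 33.8 CPM in 41BB+ and 44.0 to 61.3 CPM in 41BB- libraries. The order of the populations at 72 h was thus opposite to that at the sort, without overlap. The 5 CD8 T cell markers (Cd8a, Cd8b1, Cd3d, Cd3e and Cd3g) summed to 932 to 2884 CPM in every library. Of the 3 genes of the CD4 T cell list, Cd4 averaged at most 0.615 CPM in a group. The list summed to at most 2.92 CPM at 0 h and 10.9 CPM at 24 h. At 72 h its sum was 20.5 to 28.5 CPM in 41BB+ and 39.8 to 50.6 CPM in 41BB- libraries, most of it Zbtb7b (means of 22.6 and 41.3 CPM). The 6 B cell genes summed to 95.2 to 98.4 CPM in 41BB+ and 232 to 256 CPM in 41BB- libraries at 0 h, most of it Ighm. At 72 h the sums were 531 to 592 and 420.3 to 500.5 CPM, without overlap. Cd79b, a part of the B cell receptor, had means of 3.86 (41BB+) against 11.7 CPM (41BB-) at 0 h and 7.29 against 4.36 CPM at 72 h, and Cd79a at most 0.518 CPM in a group. The plasma cell list of 3 genes, mostly Xbp1, summed to 32.9 to 34.6 CPM in 41BB+ and 15.7 to 31.1 CPM in 41BB- libraries at 0 h, to 30.9 to 39.0 and 32.2 to 36.6 CPM at 24 h, and to 20.2 to 31.0 and 46.2 to 48.2 CPM at 72 h. The NK cell genes summed to at most 5.26 CPM and the erythroid genes to at most 6.05 CPM in any library. The 5 myeloid genes summed to at most 11.6 CPM in 17 libraries and to 64.1 CPM in 1 library of 41BB+ cells at 24 h, and Itgam was at 0 in all. The part of other cells in the results was not tested. In RNA from bulk cells, fewer cells of a type and less RNA per cell cannot be told apart.

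The initiation factor genes were a small share of the RNA that changed with activation in both populations. At 0 h the 50 rows took 1.12% to 1.20% of the counts of a 41BB+ library and 0.62% to 0.633% of a 41BB- library. After 24 h the shares were 1.47% to 1.52% and 1.44% to 1.47%. By 72 h they were 0.554% to 0.628% in 41BB+ and 0.784% to 0.808% in 41BB- libraries, so the population with the larger share at 0 h had the smaller one at 72 h and the libraries of the populations did not overlap at either time. At 24 h the lowest 41BB+ library lay just above the highest 41BB- library. Mitochondrial transcripts took 8.70% to 8.75% of the counts in 41BB+ and 8.74% to 11.4% in 41BB- libraries at 0 h, 6.15% to 6.76% and 6.17% to 6.81% at 24 h, and 10.5% to 11.4% and 8.84% to 9.56% at 72 h, where the populations did not overlap. With mitochondrial and ribosomal protein genes left out of the fit, all 251 calls made on members over the 9 contrasts were kept. Counts in sequencing libraries are relative, so these shares say nothing of the amount of RNA per cell.

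Of the 50 rows, 47 had enough counts to be tested, and 46 of those had at least 10 counts in every library. The lowest was Eif4ebp1, with 7 counts in 1 library. The other three were Eif4e3 and Eif4ebp3, at 0 counts in all 18 libraries, and Eif4e1b, a cap-binding gene of germ cells, with 3 counts in all. Of the 47, 36 had their highest group mean at 24 h (19 in 41BB- and 17 in 41BB+ cells). The lowest mean was in 41BB+ cells at 72 h for 21 members and in 41BB- cells at 0 h for 20. The highest group mean was 1.23 to 8.71 times the lowest, with a median of 3.12 times, and it was under 1.5 times for 6 members.

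**Figure D1:**
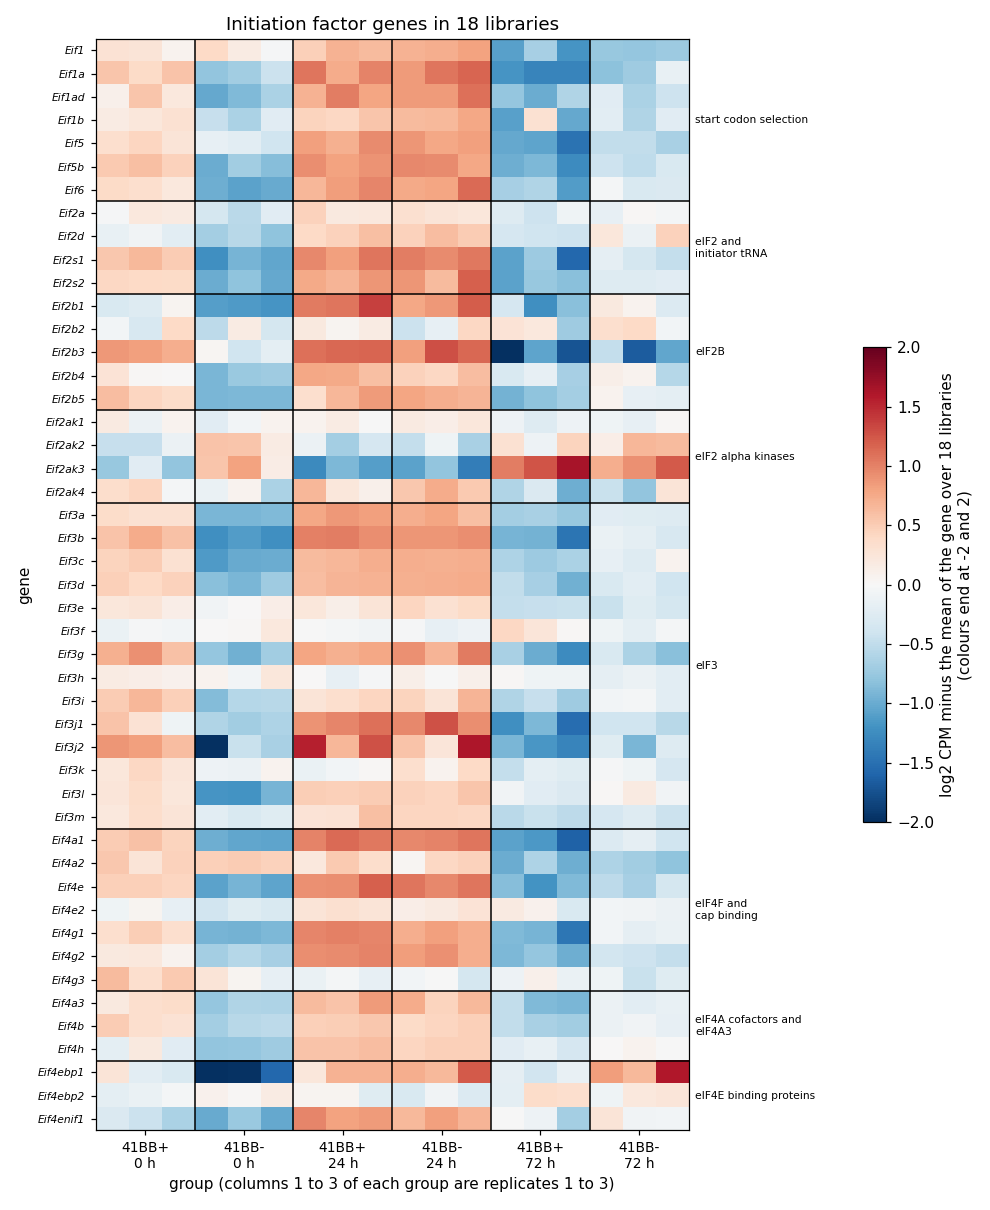
Each row is 1 of the 47 tested genes, ordered by role, and each column 1 of the 18 libraries in 6 groups; the colour is log2 CPM minus the mean of that gene over all libraries, with colours ending at -2 and 2. Most rows are red in the 24 h columns and blue in the 41BB- columns at 0 h and the 41BB+ columns at 72 h, while Eif2ak3 runs the other way.

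Differences were tested in 1 edgeR quasi-likelihood fit over all 13150 testable genes and 18 libraries, with Benjamini-Hochberg adjustment over all genes and a threshold of 0.05. A positive log2 fold change (log2FC, given with its standard error) means higher in 41BB+ cells or at the later time. At 0 h, 35 of 47 members were higher in 41BB+ cells and 2 lower, where 39.5% of all tested genes were called, 22.2% as higher and 17.3% as lower. The median log2FC of the members was 0.89 (from -1.10 to 1.94), and that of all tested genes 0.01. In 37 of the 47, all 41BB+ libraries at 0 h lay above all 41BB- libraries, as they did for 27.2% of all tested genes.

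After 24 h no member passed: edgeR called 0 of 47 in either direction, where it called 2.75% of all tested genes (1.67% higher and 1.07% lower). An unadjusted p under 0.05 was reached by 6 of 47 members and by 12.4% of all tested genes, which is about the same share. DESeq2 called 3 members and 3.97% of all tested genes. Median log2FC was 0.10, with a range from -0.21 to 0.39. At 72 h, 1 member was higher in 41BB+ cells and 22 were lower, against 6.71% and 12.2% of all tested genes (18.9% in all), with a median log2FC of -0.36 for the members and -0.04 for all genes. Of all genes called at 72 h, 35.5% were higher in 41BB+ cells, or 49.7% with only the 6 libraries of that time in the fit. That smaller fit called 1 member higher and 15 lower, and of all 11425 genes it tested, 891 higher and 900 lower. Libraries of 41BB+ cells lay wholly below those of 41BB- cells for 24 members at that time, and for 20.5% of all tested genes.

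**Figure D2:**
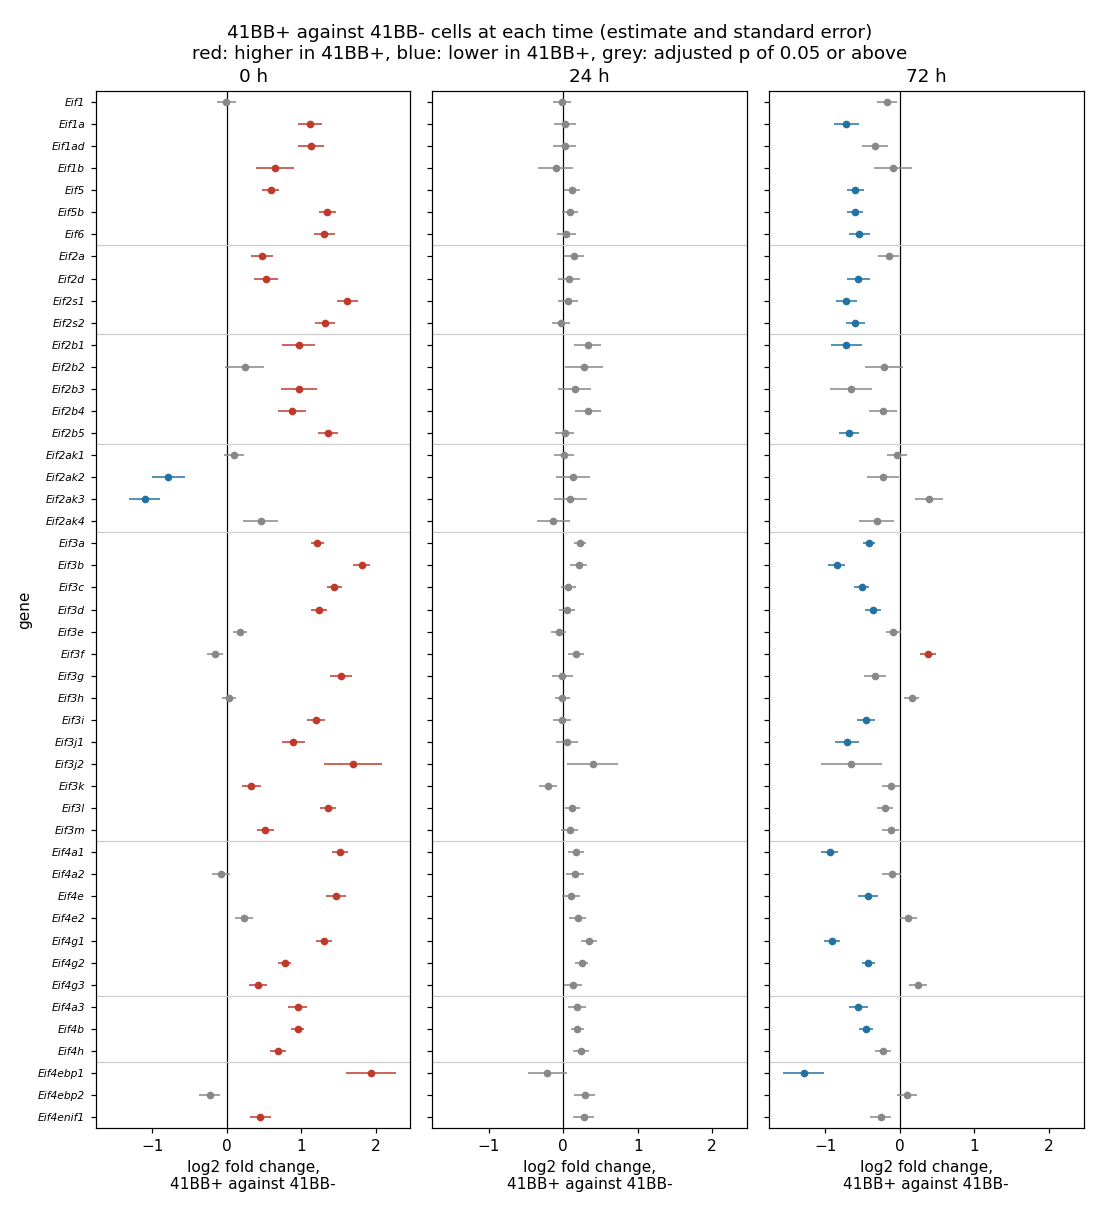
Log2 fold changes of 41BB+ against 41BB- cells (horizontal axis) with standard errors are drawn for 47 genes (vertical axis, ordered by role) at 0 h, 24 h and 72 h, in red where higher and blue where lower past the threshold and in grey otherwise. Points lie mostly right of 0 at 0 h, close to 0 at 24 h and mostly left of 0 at 72 h.

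Each population was also followed over time. From 0 h to 24 h, 37 of 47 members rose and 3 fell in 41BB- cells, where 56.6% of all tested genes were called, 29% higher and 27.6% lower (median log2FC 1.20 for the members, -0.07 for all genes). In 41BB+ cells 24 rose and 1 fell over the same interval (18.1% and 16.5% of all genes, 34.6% in all, median log2FC 0.39). From 24 h to 72 h, 37 fell and 3 rose in 41BB+ cells (26.3% and 26.2% of all genes, 52.5% in all, median log2FC -1.15). In 41BB- cells 34 fell and 3 rose (18.2% and 22.6%, 40.8% in all, median -0.68). These contrasts share the 24 h libraries, so a rise followed by a fall is partly built in.

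The difference between the populations in these changes was tested as an interaction. By its definition, the interaction of an interval is the population log2FC at its end minus that at its start. It therefore restates the population differences given above and is not separate evidence. Over the first interval 26 members had a negative interaction (the 41BB+ change minus the 41BB- change) and 2 a positive one, against 14% and 9.03% of all tested genes (23% in all). The largest interactions downward were those of Eif4ebp1, Eif3b and Eif2s1, and the 2 upward were the kinase genes Eif2ak3 and Eif2ak2. Over the second interval 21 members had a negative interaction and 0 a positive one by edgeR and by DESeq2, against 11.4% and 6.1% of all genes (17.5% in all). An unadjusted p under 0.05 was reached by 27 of 47 members there and by 28.8% of all tested genes. Without replicate 3 of 41BB+ cells at 24 h the 21 became 12, and without replicate 1 of 41BB- cells at 24 h it was 13.

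Promoters of the members were read for 4 short motifs in windows from 250 bases before to 50 after the annotated start (RefSeq, GRCm38.p6, both strands). A window was found for 38 members, all of them tested, and 1 window per gene was used. For members it was the window nearest the GENCODE M21 start of the gene. For the background genes it was the most upstream window, so the shares were not read in quite the same way. The E-box CACGTG, a site bound by MYC and related factors, was in 7 of the 38 (18.4%), against 10.3% of the windows of 9219 tested genes and 7.24% of all 27025. The ETS core CGGAAG was in 19 of 38, against 33.3% and 17.2% of those windows. The GC box GGGCGG was in 73.7%, against 64.4% and 35.9%, and TGATGNAA, a form of the ATF4 element, was in 0 of 38, against 2.21% and 4.06%. Pyrimidine tracts at the start (a C and 4 pyrimidines) mark mRNAs that mTORC1 controls. They began at the annotated base in 1 of 38 windows (2.30% of tested genes), that of Eif3f, and within 5 bases of it in 10 of 38 (26.3%, against 20.2% of tested genes).

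The 6 E-boxes shown here lay upstream of the RefSeq start. By GENCODE M21 coordinates, those of Eif4g1 and Eif1b lay inside the genes, which begin at chr16:20668313 and chr9:120492232. Every E-box that ended before the RefSeq start is shown. The 6 belong to 5 members that passed at 0 h and to 1 that did not. Each line gives 30 bases, 5′ to 3′ on the gene's own strand, with the E-box in capitals.
Eif4a1 promoter, chr11:69672595-69672624, minus strand: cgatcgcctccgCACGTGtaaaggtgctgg
Eif4g1 promoter, chr16:20672661-20672690, plus strand: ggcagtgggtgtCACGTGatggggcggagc
Eif4h promoter, chr5:134639488-134639517, minus strand: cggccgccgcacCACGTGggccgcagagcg
Eif1b promoter, chr9:120492570-120492599, plus strand: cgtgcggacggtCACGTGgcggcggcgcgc
Eif3k promoter, chr7:28981915-28981944, minus strand: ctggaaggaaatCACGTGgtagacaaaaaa
Eif3f promoter, chr7:108934335-108934364, plus strand: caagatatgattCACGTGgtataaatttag
The 0 h log2FC of these genes was 1.52 for Eif4a1, 1.30 for Eif4g1, 0.69 for Eif4h, 0.65 for Eif1b, 0.33 for Eif3k and -0.16 for Eif3f, and only the last did not pass. The calls of Eif1b and Eif3k were lost under other settings, given further on. Over the 7 members with an E-box (the other is Eif3a) the median 0 h log2FC was 0.69, and over the 31 without it was 0.88. A match is a description of the letters and shows no binding.

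Among the eIF4F genes, Eif4e, Eif4a1 and Eif4g1 differed between the populations at 0 h and 72 h. Eif4e (chromosome 3, 138526179 to 138559696) encodes the cap-binding subunit. At 0 h it stood at 119, 120.1 and 115 CPM in the 41BB+ libraries and 40.9, 45.1 and 41.3 CPM in the 41BB- libraries. After 24 h the values were 162, 164 and 197 CPM in the 41BB+ libraries and 181, 167 and 181 CPM in the 41BB- libraries. After 72 h they were 47.5, 37.5 and 46.6 CPM in the 41BB+ libraries and 60.1, 54.4 and 67.2 CPM in the 41BB- libraries. The groups were far apart at 0 h, overlapped at 24 h, and at 72 h all 41BB+ libraries lay below the 41BB- ones (log2FC 1.47 ± 0.13, adjusted p = 5.08e-10 at 0 h and log2FC -0.43, adjusted p = 0.0218 at 72 h). The 72 h call was lost without 41BB- replicate 1, 41BB- replicate 3 or 41BB+ replicate 2 at that time (adjusted p = 0.0875 to 0.233), with only the 72 h libraries in the fit (0.188) and without the filter on low counts (0.143).

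Eif4a1 (chromosome 11, 69666936 to 69672423), which encodes the main eIF4A helicase, had the highest level per kilobase of exon of all members over the 18 libraries. In freshly sorted cells it was at 893, 948 and 863 CPM in the 41BB+ libraries and 322, 308 and 302 CPM in the 41BB- libraries. It reached 1252, 1387 and 1313 CPM in the 41BB+ libraries and 1223, 1252 and 1328 CPM in the 41BB- libraries at 24 h. After 72 h it was back at 301, 284 and 206 CPM in the 41BB+ libraries and 521, 557 and 479.7 CPM in the 41BB- libraries. The order of the populations turned round without overlap from 0 h to 72 h (log2FC 1.52 ± 0.11, adjusted p = 9.06e-12 and log2FC -0.94 ± 0.11, adjusted p = 6.85e-07). Its paralog Eif4a2 (chromosome 16, 23107444 to 23114136), which encodes a near-identical helicase, behaved differently. It had 324, 268 and 307 CPM in the 41BB+ libraries and 311, 317 and 309 CPM in the 41BB- libraries at 0 h. The 24 h values were 258, 322 and 286 CPM in the 41BB+ libraries and 230.1, 299 and 309.6 CPM in the 41BB- libraries. By 72 h they were 112, 147 and 113 CPM in the 41BB+ libraries and 146, 137 and 128 CPM in the 41BB- libraries. The populations overlapped at every time (adjusted p = 0.693, 0.682 and 0.599), and both fell from 24 h to 72 h (log2FC -1.15 in 41BB+ and -0.88 in 41BB- cells).

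The balance of the helicase paralogs therefore differed with the group. Per kilobase of exon, the ratio of Eif4a1 to Eif4a2 at 0 h was 3.39, 4.36 and 3.46 in 41BB+ libraries and 1.27, 1.19 and 1.21 in 41BB- libraries. At 24 h the ratios were 5.97, 5.31 and 5.66 and 6.55, 5.15 and 5.28. By 72 h they were 3.30, 2.39 and 2.24 and 4.39, 4.99 and 4.61. So the 41BB- libraries held the lowest ratios before activation, and the 41BB+ libraries the lower ones at 72 h. This ratio was chosen after the values were seen and was not tested. Reads shared with copies add uncertainty, since the processed pseudogene Eif4a-ps4 alone had 8595 counts over the 18 libraries against 49968 for Eif4a1.

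Scaffold genes of eIF4G were not alike either. Eif4g1 (chromosome 16, 20668313 to 20692884) encodes the main scaffold. It was at 744, 822 and 744 CPM in the 41BB+ libraries and 308, 305 and 315 CPM in the 41BB- libraries before activation. By 24 h it was at 1153, 1179.6 and 1149.6 CPM in the 41BB+ libraries and 967, 1036 and 970.3 CPM in the 41BB- libraries. At 72 h the values were 317, 309.6 and 216 CPM in the 41BB+ libraries and 568, 519 and 535 CPM in the 41BB- libraries. At 24 h the 41BB+ libraries lay above the 41BB- ones, a difference that did not pass (log2FC 0.34, adjusted p = 0.0894) but did with DESeq2 and with only the 24 h libraries in the fit. The difference at 0 h and the opposite one at 72 h both passed (log2FC 1.30 ± 0.11, adjusted p = 1.41e-10 and log2FC -0.91 ± 0.11, adjusted p = 9.83e-07).

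Eif4g3 (chromosome 4, 137993022 to 138208508), which encodes the second scaffold, eIF4GII, had 455, 368 and 422 CPM in the 41BB+ libraries and 352, 305 and 262 CPM in the 41BB- libraries at 0 h. Its 24 h levels were 267, 285 and 260.0 CPM in the 41BB+ libraries and 283, 291 and 229.8 CPM in the 41BB- libraries. By 72 h it was at 272, 315 and 267 CPM in the 41BB+ libraries and 276, 215 and 249 CPM in the 41BB- libraries. It was higher in 41BB+ cells at 0 h (log2FC 0.42, adjusted p = 0.00555). Leaving out 41BB- replicate 3 ended that call (adjusted p = 0.0553). It was the 1 member that fell from 0 h to 24 h in 41BB+ cells (log2FC -0.56). The per-kilobase ratio of Eif4g1 to Eif4g3, which was not tested, was 2.48, 3.38 and 2.67 in 41BB+ and 1.32, 1.52 and 1.82 in 41BB- libraries at 0 h. At 24 h it was 6.55, 6.28 and 6.70 and 5.18, 5.40 and 6.40, with overlap. By 72 h the order was opposite to that at 0 h, with 1.77, 1.49 and 1.23 in 41BB+ and 3.11, 3.66 and 3.26 in 41BB- libraries.

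Eif4g2 (chromosome 7, 111067750 to 111083030) encodes DAP5, an eIF4G relative without the eIF4E binding site. At 0 h it stood at 1009, 1017 and 928 CPM in the 41BB+ libraries and 552, 596 and 559 CPM in the 41BB- libraries. The 24 h values were 1688, 1696 and 1750.3 CPM in the 41BB+ libraries and 1566, 1658 and 1461 CPM in the 41BB- libraries. At 72 h they were 474, 516 and 447 CPM in the 41BB+ libraries and 683, 660.4 and 636 CPM in the 41BB- libraries. Its populations did not overlap at any time, and it followed Eif4g1 with smaller differences at 0 h and 72 h (log2FC 0.78 and -0.43). Eif4e2 (chromosome 1, 87213914 to 87240488) encodes the eIF4E homologous protein, which binds the cap without eIF4G and represses translation. Its 0 h levels were 123, 135 and 117 CPM in the 41BB+ libraries and 100.4, 111 and 106 CPM in the 41BB- libraries. After 24 h they were 156, 162 and 156 CPM in the 41BB+ libraries and 144, 148 and 157 CPM in the 41BB- libraries. After 72 h they were 149, 138 and 105 CPM in the 41BB+ libraries and 125, 125 and 120.3 CPM in the 41BB- libraries. The populations did not overlap at 0 h, but Eif4e2 passed the test at no time (adjusted p = 0.133, 0.56 and 0.557). It rose from 0 h to 24 h in both populations (log2FC 0.39 in 41BB+ and 0.43 in 41BB- cells).

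**Figure D3:**
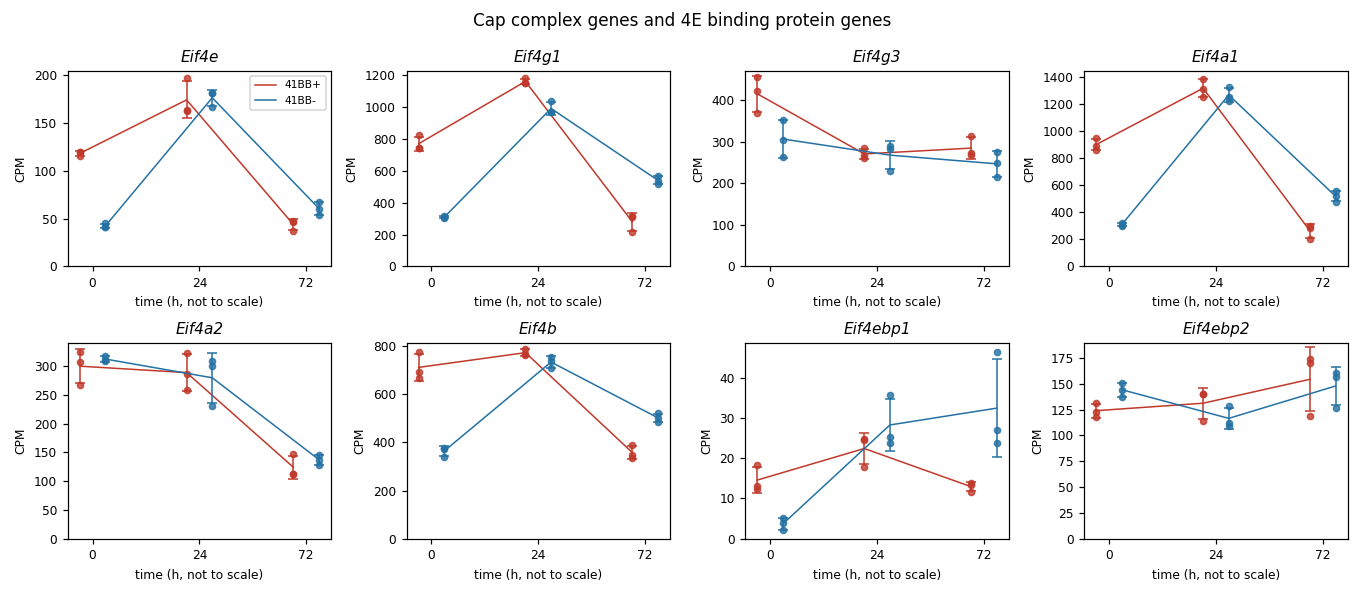
CPM (vertical axis, from 0) of 8 genes of the cap complex and its control at 0, 24 and 72 h (horizontal axis, not to scale); points are libraries, bars the mean and SD of 3, red 41BB+ and blue 41BB-. Eif4e, Eif4g1, Eif4a1 and Eif4b peak at 24 h with the populations in opposite order at 0 h and 72 h, and Eif4a2 and Eif4ebp2 keep the populations close together.

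Genes of the 4E binding proteins, which hold eIF4E inactive when they are not phosphorylated, split in the same way. Eif4ebp1 (chromosome 8, 27260329 to 27276674) had the largest log2FC of all members between the populations at 0 h and at 72 h. It was at 18.3, 13.2 and 12.4 CPM in the 41BB+ libraries and 2.17, 3.89 and 5.13 CPM in the 41BB- libraries before activation. At 24 h it stood at 17.9, 24.7 and 24.8 CPM in the 41BB+ libraries and 25.2, 23.9 and 35.8 CPM in the 41BB- libraries. By 72 h the values were 13.4, 11.6 and 13.7 CPM in the 41BB+ libraries and 27.1, 23.8 and 46.5 CPM in the 41BB- libraries. The 41BB- libraries moved from wholly below the 41BB+ ones to wholly above them (log2FC 1.94 ± 0.34, adjusted p = 3.38e-05 at 0 h and log2FC -1.29 ± 0.27, adjusted p = 0.00117 at 72 h). In 41BB- cells it rose to 24 h (log2FC 2.83) and showed no fall past the threshold after it (log2FC 0.36, adjusted p = 0.295). Its fall in 41BB+ cells (log2FC -0.72) was lost without 41BB+ replicate 2 or 3 at 24 h or 41BB+ replicate 1 or 2 at 72 h (adjusted p = 0.0589 to 0.101).

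Eif4ebp2 (chromosome 10, 61428491 to 61452661) encodes 4E-BP2, which has the same function. It had 118, 123 and 132 CPM in the 41BB+ libraries and 144, 138 and 151 CPM in the 41BB- libraries at 0 h. After 24 h it was at 140.0, 139.7 and 114 CPM in the 41BB+ libraries and 109, 129 and 112 CPM in the 41BB- libraries. At 72 h it was at 119, 174 and 170.5 CPM in the 41BB+ libraries and 127, 156 and 160.4 CPM in the 41BB- libraries. It passed at no time between the populations, although the 41BB+ libraries lay below the 41BB- ones at 0 h (log2FC -0.23, adjusted p = 0.2). Per kilobase, Eif4ebp2 was above Eif4ebp1 in every library, by 25.2, 13.4 and 11.2 times in the 41BB- libraries at 0 h and by 1.65, 2.04 and 1.18 times at 24 h. The ratio of Eif4e to both binding protein genes together, again per kilobase and not tested, was 0.692, 0.735 and 0.678 in 41BB+ and 0.263, 0.293 and 0.242 in 41BB- libraries at 0 h. By 72 h it was 0.297, 0.176 and 0.217 and 0.291, 0.239 and 0.229, and the groups overlapped.

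Eif4enif1 (chromosome 11, 3202392 to 3244588) encodes 4E-T, which binds eIF4E and carries it to the nucleus and to processing bodies. It stood at 108, 97.8 and 84.7 CPM in the 41BB+ libraries and 65.7, 79.1 and 65.1 CPM in the 41BB- libraries at 0 h. The 24 h values were 259, 231 and 237 CPM in the 41BB+ libraries and 208, 234 and 211 CPM in the 41BB- libraries. By 72 h they were 131, 122 and 82.1 CPM in the 41BB+ libraries and 159, 125 and 127 CPM in the 41BB- libraries. With Eif2b1 it had the largest rise from 0 h to 24 h in 41BB+ cells (log2FC 1.38 for each) and also rose in 41BB- cells (1.56). Its 0 h difference (log2FC 0.45, adjusted p = 0.014) was lost without 41BB+ replicate 1 or 2 or 41BB- replicate 1 or 3 (adjusted p = 0.0513 to 0.0776). The helicase cofactor genes Eif4b and Eif4h and the gene of the exon junction helicase, Eif4a3, all passed as higher in the 41BB+ population at 0 h (log2FC 0.95, 0.69 and 0.95). Eif4b was at 711 ± 57.2 (41BB+) against 364 ± 20.0 CPM (41BB-) at that time, and at 72 h at 358 ± 27.5 (41BB+) against 502 ± 17.6 CPM (41BB-) (log2FC -0.45, adjusted p = 0.000699). Eif4a3 was lower in 41BB+ cells at 72 h as well, and Eif4h did not pass (log2FC -0.23, adjusted p = 0.162).

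The kinases of eIF2 alpha formed the 1 role group in which no member was higher in 41BB+ cells at 0 h. Each answers to another stress: Eif2ak1 encodes HRI (heme shortage), Eif2ak2 PKR (double-stranded RNA, an interferon-induced gene), Eif2ak3 PERK (misfolded protein in the endoplasmic reticulum) and Eif2ak4 GCN2 (uncharged tRNA). Eif2ak3 (chromosome 6, 70844515 to 70905245) ran opposite to most members. At 0 h it had 29.5, 42.3 and 28.7 CPM in the 41BB+ libraries and 72.8, 86.5 and 55.2 CPM in the 41BB- libraries. By 24 h it was at 20.7, 26.8 and 23.3 CPM in the 41BB+ libraries and 23.6, 28.8 and 19.0 CPM in the 41BB- libraries. After 72 h it was at 101, 119 and 157 CPM in the 41BB+ libraries and 82.7, 93.9 and 117 CPM in the 41BB- libraries. So it was lower in 41BB+ cells before activation (log2FC -1.10 ± 0.21, adjusted p = 9.38e-05), low in both at 24 h, and highest in both at 72 h, where the groups overlapped (log2FC 0.39, adjusted p = 0.159). The late rise was the largest of any member in either population (log2FC 2.48 in 41BB+ and 2.18 in 41BB- cells).

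Eif2ak2 (chromosome 17, 78852564 to 78882573) stood at 20.6, 20.6 and 26.0 CPM in the 41BB+ libraries and 42.1, 41.5 and 31.7 CPM in the 41BB- libraries at 0 h. Its 24 h values were 26.1, 17.8 and 22.5 CPM in the 41BB+ libraries and 20.4, 26.7 and 18.2 CPM in the 41BB- libraries. By 72 h it was at 34.8, 26.5 and 38.8 CPM in the 41BB+ libraries and 31.1, 45.1 and 44.1 CPM in the 41BB- libraries. The lower level in 41BB+ cells at 0 h passed (log2FC -0.78 ± 0.22, adjusted p = 0.00501), and the later comparisons overlapped. Its late rise in 41BB+ cells (log2FC 0.67) was lost without 41BB+ replicate 2 at 24 h or 41BB+ replicate 3 at 72 h (adjusted p = 0.0743 and 0.0630).

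Eif2ak4 (chromosome 2, 118388618 to 118475234) was at 43.9, 46.6 and 33.7 CPM in the 41BB+ libraries and 31.3, 36.3 and 22.3 CPM in the 41BB- libraries at 0 h. At 24 h it was at 54.7, 40.6 and 37.1 CPM in the 41BB+ libraries and 50.1, 57.5 and 49.4 CPM in the 41BB- libraries. By 72 h the values were 22.8, 28.2 and 17.5 CPM in the 41BB+ libraries and 25.3, 20.1 and 41.0 CPM in the 41BB- libraries. It passed at no time between the populations (adjusted p = 0.131 at 0 h), and like most members it rose to 24 h in 41BB- cells (log2FC 0.73) and fell by 72 h in both (log2FC -0.88 in 41BB+ and -0.70 in 41BB- cells). The fall in 41BB- cells was lost without 41BB- replicate 2 at 72 h (adjusted p = 0.0741).

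Eif2ak1 (chromosome 5, 143817788 to 143904251) had 79.2, 64.4 and 73.4 CPM in the 41BB+ libraries and 59.5, 67.1 and 73.6 CPM in the 41BB- libraries at 0 h. Its levels were 73.1, 77.9 and 69.8 CPM in the 41BB+ libraries and 79.5, 76.4 and 81.8 CPM in the 41BB- libraries at 24 h. They were 65.0, 58.5 and 65.2 CPM in the 41BB+ libraries and 65.9, 62.2 and 71.0 CPM in the 41BB- libraries at 72 h. It passed in none of the contrasts between populations or times.

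**Figure D4:**
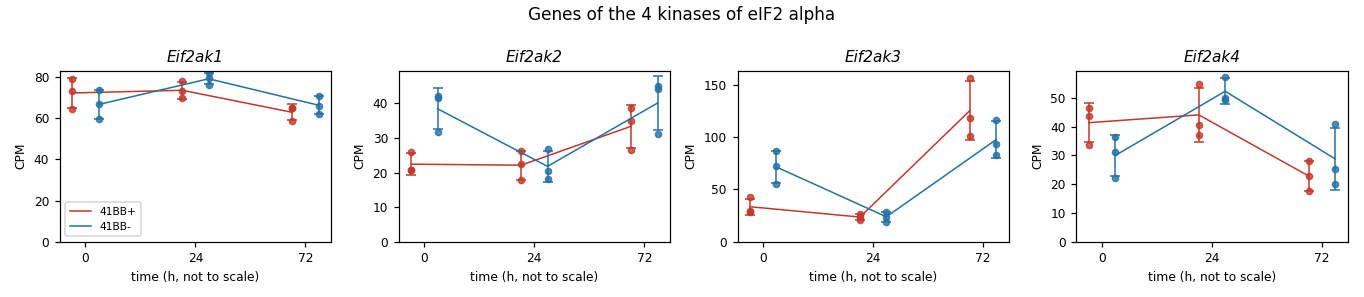
CPM (vertical axis, from 0) of the genes of the 4 eIF2 alpha kinases at 0, 24 and 72 h (horizontal axis, not to scale), with points for libraries and bars for the mean and SD of 3 (red 41BB+, blue 41BB-). Eif2ak3 is lowest at 24 h and highest at 72 h in both populations, and Eif2ak1 stays between 58.5 and 81.8 CPM throughout.

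The substrate of these kinases, eIF2 alpha, is encoded by Eif2s1 (chromosome 12, 78861819 to 78887010), which went the way of eIF4F. It was at 231, 248 and 225 CPM in the 41BB+ libraries and 67.6, 83.0 and 77.2 CPM in the 41BB- libraries at 0 h. After 24 h it was at 309.8, 282 and 332 CPM in the 41BB+ libraries and 323, 306 and 331 CPM in the 41BB- libraries. At 72 h it was at 75.7, 95.7 and 53.3 CPM in the 41BB+ libraries and 140.4, 124 and 114 CPM in the 41BB- libraries. The populations were apart at 0 h, overlapped at 24 h and were apart in the other order at 72 h (log2FC 1.62 ± 0.14, adjusted p = 3.46e-10 and log2FC -0.72 ± 0.14, adjusted p = 0.000518). Eif2s2, the gene of eIF2 beta, was at 168 ± 2.06 (41BB+) against 66.8 ± 5.35 CPM (41BB-) at 0 h and 69.3 ± 7.31 (41BB+) against 108 ± 0.867 CPM (41BB-) at 72 h, again with opposite calls (log2FC 1.32 and -0.60). The gamma subunit is encoded by the sex-linked genes that the rule leaves out. Eif2a and Eif2d, which encode factors that can deliver tRNA to the ribosome without eIF2, had smaller differences at 0 h (log2FC 0.48 and 0.52). At 72 h Eif2d was lower in 41BB+ cells and Eif2a did not pass.

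All 5 subunit genes of eIF2B, the exchange factor for eIF2, were tested, and 4 passed as higher in the 41BB+ population before activation. Eif2b5, the gene of the catalytic epsilon subunit, was at 124 ± 11.5 (41BB+) against 47.6 ± 0.140 CPM (41BB-) at that time (log2FC 1.36, adjusted p = 4.53e-09), and Eif2b1, Eif2b3 and Eif2b4 had log2FC of 0.96, 0.97 and 0.88. Eif2b2, the gene of the beta subunit, passed in no contrast, with group means from 22.03 to 30.03 CPM. At 72 h Eif2b5 and Eif2b1 were lower in 41BB+ cells (log2FC -0.68 and -0.72). Eif2b3 had the largest fall of all members from 24 h to 72 h in 41BB+ cells, from 61.0 ± 1.35 to 8.80 ± 4.38 CPM (log2FC -2.73, adjusted p = 9.91e-10).

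Members grouped under start codon selection and subunit joining went the same way, and 6 of 7 had a higher level in the 41BB+ population at 0 h. The group takes in Eif1ad, which encodes an eIF1A domain protein and is named for that likeness. Eif5b, which encodes the GTPase that joins the ribosomal subunits, was at 309.7 ± 15.5 (41BB+) against 120.4 ± 12.5 CPM (41BB-) and Eif6, which encodes a factor that keeps the large subunit from joining early, at 112 ± 6.74 (41BB+) against 44.6 ± 1.40 CPM (41BB-) (log2FC 1.35 and 1.31). Eif1a, Eif1ad, Eif1b and Eif5 followed with log2FC of 1.11, 1.13, 0.65 and 0.59. Eif1, which encodes the factor that guards start codon choice together with eIF1A, did not pass (log2FC -0.00, adjusted p = 0.986), with 165 ± 13.3 (41BB+) against 164 ± 24.3 CPM (41BB-). Yet Eif1 rose to 24 h and fell to 72 h in both populations like the others (log2FC 0.46 and -1.50 in 41BB+ cells, 0.47 and -1.35 in 41BB- cells). At 72 h Eif1a, Eif5, Eif5b and Eif6 were lower in 41BB+ cells, with log2FC from -0.72 (Eif1a) to -0.54 (Eif6).

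The multi-subunit factor eIF3 binds the small ribosomal subunit and recruits the mRNA through eIF4G. Its 14 genes are described in sets divided at a 0 h log2FC of 0.8, a cut on the same values as the ranges given. Of the 14 genes, 9 had a log2FC of 0.89 to 1.81, all called (Eif3a, Eif3b, Eif3c, Eif3d, Eif3g, Eif3i, Eif3j1, Eif3j2 and Eif3l). The other 5 had -0.16 to 0.52. Among the 5, Eif3k and Eif3m passed (log2FC 0.33 and 0.52) and Eif3e, Eif3f and Eif3h did not (log2FC 0.18, -0.16 and 0.03). Eif3b (chromosome 5, 140419328 to 140443360), which encodes a scaffold subunit, was at 464, 522 and 469 CPM in the 41BB+ libraries and 133, 145 and 133 CPM in the 41BB- libraries at 0 h. Its 24 h values were 632, 639 and 594 CPM in the 41BB+ libraries and 579, 578 and 597 CPM in the 41BB- libraries. At 72 h they were 164, 163 and 113 CPM in the 41BB+ libraries and 286, 274 and 252 CPM in the 41BB- libraries. No library of one population lay within the other at 0 h or 72 h, and the order was turned round (log2FC 1.81 ± 0.12, adjusted p = 9.56e-13 and log2FC -0.85 ± 0.11, adjusted p = 4.79e-06).

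Eif3f (chromosome 7, 108934417 to 108942951) encodes a subunit of the MPN domain type and had 167, 180.2 and 175 CPM in the 41BB+ libraries and 183, 184 and 211 CPM in the 41BB- libraries at 0 h. By 24 h it was at 181, 178 and 173 CPM in the 41BB+ libraries and 180.3, 163 and 169 CPM in the 41BB- libraries. After 72 h it was at 244, 216 and 186 CPM in the 41BB+ libraries and 171, 159.9 and 177 CPM in the 41BB- libraries. It was the 1 member called higher in 41BB+ cells at 72 h (log2FC 0.38 ± 0.11, adjusted p = 0.0156), with the 3 libraries of each population apart, and it rose from 24 h to 72 h in 41BB+ cells (log2FC 0.35), though not when 41BB+ replicate 1 at 72 h was left out (adjusted p = 0.0703) or without the filter on low counts (0.105). Eif3h, which encodes the other MPN subunit, passed in no contrast, and its libraries ran from 239.9 to 325 CPM. Eif3e, of the PCI domain type, did not pass between the populations at any time and fell from 24 h to 72 h in both (log2FC -0.59 and -0.57).

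Compared per kilobase of exon, the eIF3 genes differed in how far their levels moved. In 41BB- cells at 0 h, Eif3h stood at 183 ± 17.8 CPM per kb, Eif3b at 41.0 ± 2.00 and Eif3c at 73.5 ± 3.87. In 41BB+ cells at 0 h the same genes were at 189 ± 5.94, 145 ± 9.62 and 202 ± 14.6 CPM per kb. At 72 h in 41BB+ cells they were at 167 ± 6.89, 43.8 ± 8.67 and 96.1 ± 3.80 CPM per kb. The highest of the 14 was 30.3 times the lowest in 41BB- and 11.5 times in 41BB+ cells at 0 h, 11.3 and 9.05 times at 24 h, and 18.0 and 31.5 times at 72 h. The lowest gene was Eif3j1 or Eif3j2, a retrocopy pair with near-identical sequence whose shared reads make both values uncertain. Without that pair the highest of the other 12 genes was 6.64 times the lowest in 41BB- and 4.73 times in 41BB+ cells at 0 h, 5.22 and 5.72 times at 24 h, and 5.26 and 6.24 times at 72 h. Eif3j2 had 51.0, 48.3 and 42.1 CPM in the 41BB+ libraries and 5.58, 20.1 and 17.5 CPM in the 41BB- libraries at 0 h. The 24 h values were 80.8, 43.7 and 66.2 CPM in the 41BB+ libraries and 40.8, 32.6 and 84.1 CPM in the 41BB- libraries. After 72 h they were 14.5, 12.2 and 11.04 CPM in the 41BB+ libraries and 23.2, 14.5 and 22.9 CPM in the 41BB- libraries. The libraries of the populations were apart at 0 h only, and it passed between the populations at 0 h (log2FC 1.70 ± 0.39, adjusted p = 0.00198) and at neither later time.

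**Figure D5:**
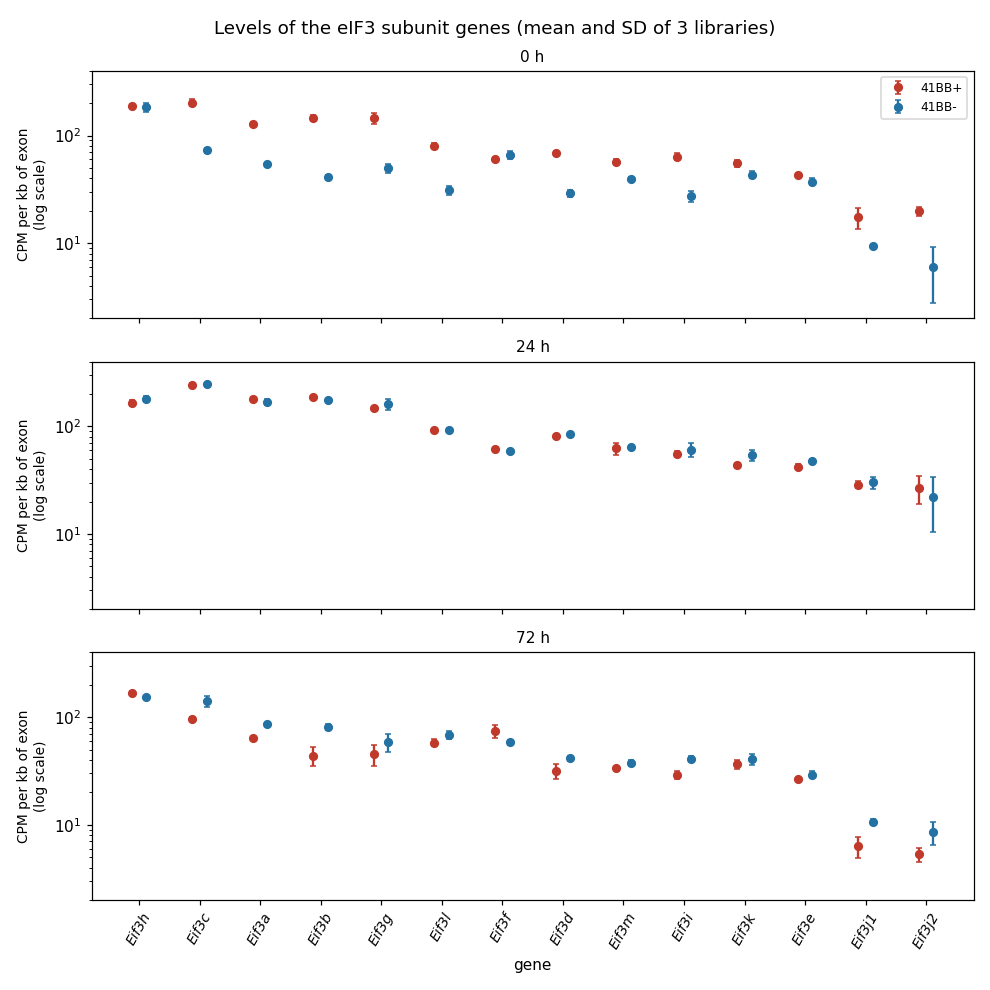
Levels of the 14 eIF3 genes in CPM per kb of exon (vertical log axis, mean and SD of 3 libraries) are ordered by their overall mean, in 41BB+ (red) and 41BB- cells (blue) at 0 h, 24 h and 72 h. At 0 h Eif3h, Eif3f, Eif3k and Eif3e lie close together in both populations while Eif3c, Eif3a, Eif3b and Eif3g are apart, at 24 h most pairs are close, and at 72 h the blue points are mostly above the red.

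Some calls rested on single libraries or on the settings of the fit. At 0 h, those of Eif1b and Eif3k were lost without any of 5 and 4 libraries in turn (Eif1b without 41BB+ replicate 1, 2 or 3 or 41BB- replicate 1 or 2, adjusted p = 0.0608 to 0.157; Eif3k without 41BB+ replicate 2 or 3 or 41BB- replicate 1 or 2, 0.0717 to 0.198). Both were also lost with RLE factors (0.0606 and 0.0712) and with DESeq2 (0.0610 and 0.0681), and Eif3k also without the filter on low counts. Eif2a was lost without 41BB+ replicate 2 or 41BB- replicate 2 (0.0528 and 0.0727) and Eif2d without 41BB- replicate 3 (0.0505). At 72 h, Eif3d was lost without 41BB+ replicate 2 or 3 or any 41BB- library (0.0553 to 0.259), Eif3i without 41BB+ replicate 1 or 3 or 41BB- replicate 1 or 2 (0.0549 to 0.0846), Eif2d without 41BB+ replicate 2 or 3 or 41BB- replicate 1 or 3 (0.0506 to 0.174), Eif2b1 without 41BB+ replicate 2 or 3 or 41BB- replicate 1 or 2 (0.0669 to 0.154), Eif6 without 41BB+ replicate 3 or 41BB- replicate 1 (0.111 and 0.0869) and Eif1a without 41BB- replicate 3 (0.105). All 6 of these were lost as well with only the 72 h libraries in the fit (0.0558 to 0.166), and Eif3d and Eif2d without the filter (0.138 and 0.0563). The 41BB+ library of replicate 3 at 72 h had the smallest share of initiation factor counts of all 18 (0.554%). Without it, 17 members were lower in 41BB+ cells at 72 h and 1 higher.

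Counting could affect some members more than others. Exons of 22 of the 50 overlapped an exon of another gene, on the opposite strand in 14 and on the same strand in 10. In 7 the overlap covered at least 10% of the exon length, among them Eif3d with 43.3%. No source used here gives the strand setting of the counting, so reads of such neighbours cannot be told apart.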

How the data were processed

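RNA-seq libraries of 18 samples (2 sorted populations at 3 times, 3 libraries each) were analysed from a table of raw read counts per Ensembl gene, deposited by the authors without normalization. The library kit was SMARTer Stranded Total RNA-Seq v2, per the labels' protocols. FastQC 0.11.9, Trimmomatic 0.38, HISAT2 2.2.1 and featureCounts are named without their settings, and the build as GRCm38, per the submitters' processing notes. For annotation release, strand setting and multiply matching reads nothing is stated in the sources used. A second deposited table that repeats the labels was not used. Symbols, coordinates and exon lengths came from GENCODE M21 (GRCm38), which lacked 260 of the IDs, and promoters from RefSeq (GRCm38.p6).

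Levels are CPM (counts divided by the library total, times 1e+06), given per library or as mean ± SD (n = 3), and divided by the merged exon length where genes are compared. Tests used edgeR 4.0.16 in R 4.3.3. It kept 13150 genes (filterByExpr, minimum count 10, minimum total 15) and used TMM factors, 1 mean per group over all 18 libraries and robust quasi-likelihood dispersion (common biological coefficient of variation 0.18). Adjusted p-values are Benjamini-Hochberg over all genes tested, with a threshold of 0.05, and standard errors were taken from the F statistic. P-values measure the spread between libraries. Every library pair of a group differed beyond sampling noise (a chi-square of at least 4.80 for each degree of freedom), so none was a copy. The edgeR step was tested on simulated data for 3 of the contrasts, with changed genes drawn from all tested genes. It recovered 87.9% to 95.5% of 4-fold, 43.3% to 53.7% of 2-fold and 3% to 10.4% of 1.41-fold changes. A gene that did not pass may therefore still differ. Results were recomputed with RLE factors, DESeq2 1.42.0, all genes unfiltered, a replicate block, a block within each time, only the compared groups, removal of mitochondrial and ribosomal protein genes, and each library left out in turn. Python 3.11.15 with pandas 2.3.3 and matplotlib 3.10.9 was used for the rest.

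The labels number the replicates as experiments. For library pairs that shared both time and number, deviations from group means correlated with a median of 0.120. All 9 pairs were positive (0.016 to 0.290), 5 of them over 0.1. The median was -0.077 where only the time was shared (18 pairs) and 0.026 where only the number was (36 pairs). The main fit had no block although pairs sharing time and number were alike, and blocks were fitted as alternatives.

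Every member is named. Values of each library are given for genes of eIF4F, its binding proteins and the eIF2 alpha kinases, and for the 3 largest called differences in each direction between populations or in an interaction. Members and lists were chosen with earlier results of these data known.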

Additional observations from a re-analysis of the deposited data

Results flagged for a closer look

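Between the populations, the change from 0 h to 24 h differed most for Eif4ebp1, with an interaction log2FC of -2.15 (41BB+ change minus 41BB- change, edgeR adjusted p = 0.000419): it rose by 2.83 in 41BB- cells and did not pass in 41BB+ cells (0.68). Eif3b (-1.61) and Eif2s1 (-1.56) came next, both with a rise in each population that was larger in 41BB- cells (2.02 against 0.41 and 2.00 against 0.44). In the opposite direction, Eif2ak3 had an interaction of 1.20 and Eif2ak2 of 0.91, since both fell in 41BB- cells (-1.65 and -0.89) and did not pass in 41BB+ cells (-0.45 and 0.03). The Eif2ak2 interaction was lost without any 1 of 8 of the 12 libraries in that contrast (adjusted p = 0.0549 to 0.105) and without the filter on low counts (0.0667).

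From 24 h to 72 h the interaction was -1.26 for Eif4g1 and -1.12 for Eif4a1, whose fall was larger in 41BB+ cells (-1.98 against -0.73 and -2.26 against -1.14). For Eif4ebp1 it was -1.08 (adjusted p = 0.0492), with a fall of -0.72 in 41BB+ cells and 0.36, not past the threshold, in 41BB- cells. That call was lost without any 1 of 10 of the 12 libraries (0.0501 to 0.283), and with DESeq2 (0.0536), RLE factors (0.0573), no filter (0.0898) and only the compared groups (0.0608). The 2 interactions share the 24 h libraries, and each restates the population differences at its start and end. The 0 h and 72 h values of each gene stand in the report.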

How the results depend on the processing

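Of 251 calls over 47 members and 9 contrasts, 210 were kept without any 1 library, and the other 41 lost the threshold without at least 1; none turned its sign under any alternative run. Calls kept were 247 with DESeq2, 243 with RLE factors, 232 without the filter on low counts, 235 with only the compared groups, 249 with the replicate block and 251 without mitochondrial and ribosomal protein genes. The block within each time, fitted to population contrasts and interactions only, kept all 109 of theirs. With the replicate block, Eif3d from 0 h to 24 h in 41BB+ cells (adjusted p = 0.0520) and Eif3m in the first interaction (0.0546) were lost.

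Members higher in 41BB+ cells at 24 h numbered 3 with DESeq2 (Eif3a, Eif4g1 and Eif4g2), 1 with the block within each time and 1 with only the compared groups, against 0. At 72 h the 1 higher member became 2 with the block within each time. The members that fell were 2, not 1, from 0 h to 24 h in 41BB+ cells with only the compared groups, and 5, not 3, in 41BB- cells with RLE factors and with DESeq2. The 21 downward interactions of the second interval became 12 without 41BB+ replicate 3 at 24 h and 13 without 41BB- replicate 1 at 24 h. Interactions upward over the first interval were 1, not 2, without the filter. The causes were not tested.

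Leaving out 1 library at a time gave 31 to 33 higher and 2 lower members at 0 h, 0 and 0 at 24 h, and 1 to 2 higher and 16 to 22 lower at 72 h. It gave 24 to 26 rises and 1 fall (0 h to 24 h) and 2 to 3 rises and 35 to 37 falls (24 h to 72 h) in 41BB+ cells, and 36 to 38 rises with 2 to 3 falls and 2 to 3 rises with 32 to 35 falls in 41BB- cells. Interactions ran from 1 to 3 upward and 22 to 25 downward over the first interval, and 0 upward and 12 to 18 downward over the second, against 21. In the second interval the calls lost most often were those of Eif4e and Eif4h (without any of the 12 libraries) and Eif2d (without 11 of 12). Eif4ebp1, with 7 to 197 counts per library, is the tested member whose precision depth limits most.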

Other observations

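Factors of later steps of translation were read from a list chosen alongside the members. Of 11 tested genes of elongation and termination, 6 were higher in the 41BB+ population at 0 h, where 22.2% of all tested genes were, and 6 were lower at 72 h, where 12.2% of all were. The termination factor genes Etf1 and Gspt1 had log2FC of 1.29 and 1.67 at 0 h and -0.66 and -0.77 at 72 h, and Abce1, the ribosome recycling gene, had 1.497 and -1.08. The elongation factor genes Eef1a1, Eef1b2 and Eef2 passed between the populations at no time, with 0 h log2FC of -0.02, 0.08 and -0.03. Of 13 other tested genes linked to initiation, not all of them helpers, 6 were higher and 2 lower at 0 h (22.2% and 17.3% of all tested genes). The higher ones included the poly(A) binding protein gene Pabpc4 (2.15) and the helicase gene Dhx29 (1.18). The lower ones were Paip2 (-0.66) and Cyfip2 (-0.76).

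Of 17 tested genes of mTORC1 and the control of eIF4E, 2 were higher at 0 h (Larp1, which encodes a repressor of mRNAs with pyrimidine tracts, 1.14, and Mtor, 0.37) and 1 was lower (Sesn1, an inhibitor of the pathway, -1.15). These shares of the list are below the 22.2% and 17.3% of all tested genes called in those directions. The eIF4A inhibitor gene Pdcd4 did not pass at 0 h (0.01), fell to 24 h in both populations (-2.97 in 41BB+ and -2.51 in 41BB- cells) and was higher in 41BB+ cells at 72 h (0.56). The list for the integrated stress response had 9 tested genes, of which 1 was higher and 2 were lower at 0 h. The first share is below the 22.2% of all tested genes and the second slightly above the 17.3%. With 9 genes, neither was read as a difference from the background. The lower ones included Ppp1r15a, which encodes the inducible subunit of the eIF2 alpha phosphatase (-2.52).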
